A study of Arachis hypogaea with 14 samples.

Results

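The miR171 family of developing peanut seed comprised 16 small RNA sequences, of 795 sequences listed for the study as a whole. Members were taken by name, as entries holding -miR171 or -MIR171 with no further digit, which gave 26 lines, 18 names and 16 different sequences. Small RNA was sequenced from seeds of 2 peanut (Arachis hypogaea) recombinant inbred lines of generation 8, the medium-pod line 8106 and the super-pod line 8107. Seeds were taken 15 or 35 days after the flower opened (DAF, days after flowering), with 3 libraries for each of the 4 combinations of line and stage. No gene was altered and no agent was applied in any group, as far as the labels say. Each line is a single inbred line, so a difference between lines is one between these 2 genotypes. The labels do not say whether libraries of a group came from separate plants, and the p-values cover only the spread between libraries, which may be technical. A degradome table, which lists mRNA cleavage sites found by sequencing 5′ ends of cut transcripts, came from 2 further libraries without replicates and does not mark the library of a site.

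In plants, miR171 guides the cleavage of mRNAs of the GRAS transcription factor family, above all the SCARECROW-like genes SCL6, also known as HAIRY MERISTEM or LOST MERISTEMS in other species. These factors keep the stem cells of shoot meristems undifferentiated in Arabidopsis and petunia. In the legumes Medicago truncatula and Lotus japonicus, particular miR171 forms also target NSP2, a GRAS factor of nodulation signalling. A miRNA is cut from a hairpin precursor as a duplex, so that a guide strand and its partner from the opposite arm can both be sequenced.

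The sequences below separate the family, by their letters, into guide forms, forms that read like the opposite strand of these, and a divergent form. They are shown 5′ to 3′ as in the deposited table, written as DNA, with the seed (bases 2 to 8) in capitals. Of the 16 sequences, 5 held the letters TTGAGCC. The 4 of them that were listed against SCL6 in the degradome table were these.
gma-miR171n_1ss20TC: tTGAGCCGcgtcaatatctca
gma-miR171n: tTGAGCCGcgtcaatatctta
lja-miR171d-5p: tTGAGCCGcgccaatatcact
mdm-MIR171f-p3: tGATTGAGccgtgccaatatc

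The forms other than mdm-MIR171f-p3 share the seed TGAGCCG. From gma-miR171n_1ss20TC to gma-miR171n the only substitution was C20T, counted from 1 at the 5′ end of gma-miR171n_1ss20TC. The form mdm-MIR171f-p3, also listed as gma-MIR171c-p3, begins 3 bases further upstream on the same family sequence and so has another seed, GATTGAG. Over the 18 bases it shares with gma-miR171n_1ss20TC, it differed by T12C and C14T, counted along mdm-MIR171f-p3. Over the 18 bases that lja-miR171d-5p shares with mdm-MIR171f-p3, 1 substitution was found, C9T, counted along lja-miR171d-5p. The fifth sequence with TTGAGCC, mtr-miR171c_L+2_1ss23TC, is 23 nt long and was listed in 1 of 12 libraries, at 3.25 normalized reads.

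A further 10 members read like the opposite strand of these guides. Those that reached the level for testing were the following, shown because each can be laid against a guide form.
ptc-MIR171m-p5_1ss17CT: cGTGGTATtgatccggttcatc
mtr-MIR171c-p5: tATTGGCTtggttcactcaga
mtr-MIR171b-p5: aGGTATTGgcgcgcctcaatt
ptc-miR171a-5p: gGATATTGgtacggttcaatc
nta-miR171a: tATTGGTGcggttcaatgaga

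Without gaps and with G-U pairs allowed, ptc-miR171a-5p paired at 20 of 20 overlapping bases with mdm-MIR171f-p3. The form mtr-MIR171b-p5 paired at 19 of 20, nta-miR171a at 18 of 19 and mtr-MIR171c-p5 at 17 of 19 with that same guide. With both gma-miR171n forms, ptc-miR171a-5p and mtr-MIR171b-p5 each paired at 18 of 19. With each of the 3 guides of seed TGAGCCG, nta-miR171a paired at 16 of 16 and mtr-MIR171c-p5 at 14 of 16. With the 23 nt mtr-miR171c_L+2_1ss23TC, nta-miR171a paired at 20 of 21 and mtr-MIR171c-p5 at 19 of 21. The 22 nt ptc-MIR171m-p5_1ss17CT paired at 17 of 21 with each of the 3 guides of seed TGAGCCG. These counts describe the letters and do not assign a form to a single guide, and no precursor was examined.

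The last member and 1 small RNA outside the family complete the set.
lja-miR171c_1ss5CT: tGAGTCGAatcaatatcactc
PC-3p-8612_823: cTATTGAGccgtgccaatatc

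The divergent lja-miR171c_1ss5CT lacks TTGAGCC. Laid against lja-miR171d-5p over 20 bases it carried C6T, C9A, G10A and C11T, counted along lja-miR171d-5p. It was not listed in the degradome table. The predicted candidate PC-3p-8612_823 has no miR171 name and is no member. It was picked up after its values were seen, because it was the only other small RNA listed against SCL6. It differs from mdm-MIR171f-p3 by T1C and G2T, counted along mdm-MIR171f-p3.

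Of the 16 members, 13 are 21 nt long, while the labels give 22 to 30 nt as the range of the small cDNA isolated. What that size selection did to their levels was not tested. Levels are given as the authors' normalized reads, and library totals over all sequences ran from 464658 to 1086382 of these. The lowest totals were those of 8107 at 35 DAF and the highest those of 8106 at 35 DAF, so levels at 35 DAF depend on how libraries are scaled. A value was listed at 0 for 36.0 to 54.5% of sequences in a library. In 11 of 12 libraries the smallest listed value corresponded to 6 reads, so a listed 0 may stand for a few reads. Members were tested with limma on log2(value + 1) within a fit of all 395 sequences that reached 10 normalized reads in at least 3 libraries. Of the 16 members 10 reached that minimum, and lja-miR171c_1ss5CT did so through 8107 at 35 DAF alone. Seed identity could be checked little: the small RNA table holds no mRNA, and of the seed marker list the degradome table holds 2 transcripts, both of the oleosin OLE9.

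Among the guide forms, gma-miR171n_1ss20TC was the most abundant member in 8106 at both stages and in 8107 at 15 DAF. It stood at 1071, 1344 and 1161 normalized reads in 8106 at 15 DAF and at 1345, 1837 and 1166 in 8106 at 35 DAF. In 8107 it stood at 1533, 2044 and 1649.7 at 15 DAF and at 533, 599 and 418 at 35 DAF. All 3 libraries of 8107 at 35 DAF lay below the other 9. Group means were 1192 ± 139, 1449 ± 348, 1742 ± 268 and 517 ± 91.7 in that order (SD, n = 3 each). From 15 to 35 DAF in 8107 it fell by 1.76 ± 0.20 on the log2 scale (SE; limma, Benjamini-Hochberg adjusted p = 5.6e-05). In 8106 its stage difference was 0.26 ± 0.20, which did not pass the test (limma, adjusted p = 0.36). The stage change of 8107 minus that of 8106 was -2.02 ± 0.28 (limma, adjusted p = 0.00025). At 35 DAF it was lower in 8107 than in 8106 by -1.47 ± 0.20 (limma, adjusted p = 0.00012). With libraries scaled to equal totals that line difference was -0.42, with an adjusted p of 0.051 in limma.

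The near-identical gma-miR171n was less abundant in every library and did not follow it fully. Its values were 305, 343 and 327 normalized reads in 8106 at 15 DAF and 496, 674 and 459 in 8106 at 35 DAF. In 8107 they were 443, 546 and 492 at 15 DAF and 278, 340 and 242 at 35 DAF. The form was highest in 8106 at 35 DAF and 8107 at 15 DAF, whose ranges overlap, and it moved in opposite directions over time in the lines. It rose in 8106 by 0.72 ± 0.17 on the log2 scale (limma, adjusted p = 0.0069), and in 8107 it fell by 0.79 ± 0.17 (limma, adjusted p = 0.0035). The difference of these changes was -1.51 ± 0.24 (limma, adjusted p = 0.00065). The rise in 8106 was 0.11 with equal library totals, with an adjusted p of 0.59 in limma. At 35 DAF the line difference was -0.91 ± 0.17 (limma, adjusted p = 0.0013), and its sign turned to 0.14 with equal library totals.

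Unlike both, mdm-MIR171f-p3 was lowest in 8106 at 35 DAF and highest in 8107 at 15 DAF. It stood at 519.9, 590.3 and 553 normalized reads in 8106 at 15 DAF, and at 136, 154 and 124 in 8106 at 35 DAF. In 8107 its values were 908, 1121 and 968 at 15 DAF and 659, 778 and 574 at 35 DAF. The 3 libraries of 8106 at 35 DAF were the lowest of all 12, and the 3 of 8107 at 15 DAF were the highest. In 8107 it was higher than in 8106 by 0.84 ± 0.14 at 15 DAF (limma, adjusted p = 0.0023), a call lost with median centring (0.60, limma, adjusted p = 0.081). The line difference was 2.27 ± 0.14 at 35 DAF (limma, adjusted p = 3.6e-07) and ran from 1.61 to 3.32 under other scalings. With stage it fell by 2.00 ± 0.14 in 8106 (limma, adjusted p = 1.7e-06) and fell by 0.58 ± 0.14 in 8107 (limma, adjusted p = 0.0066). The fall in 8107 did not pass with equal library totals (-0.25, limma, adjusted p = 0.087) or with median centring (-0.53, limma, adjusted p = 0.067).

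**Figure D1:**
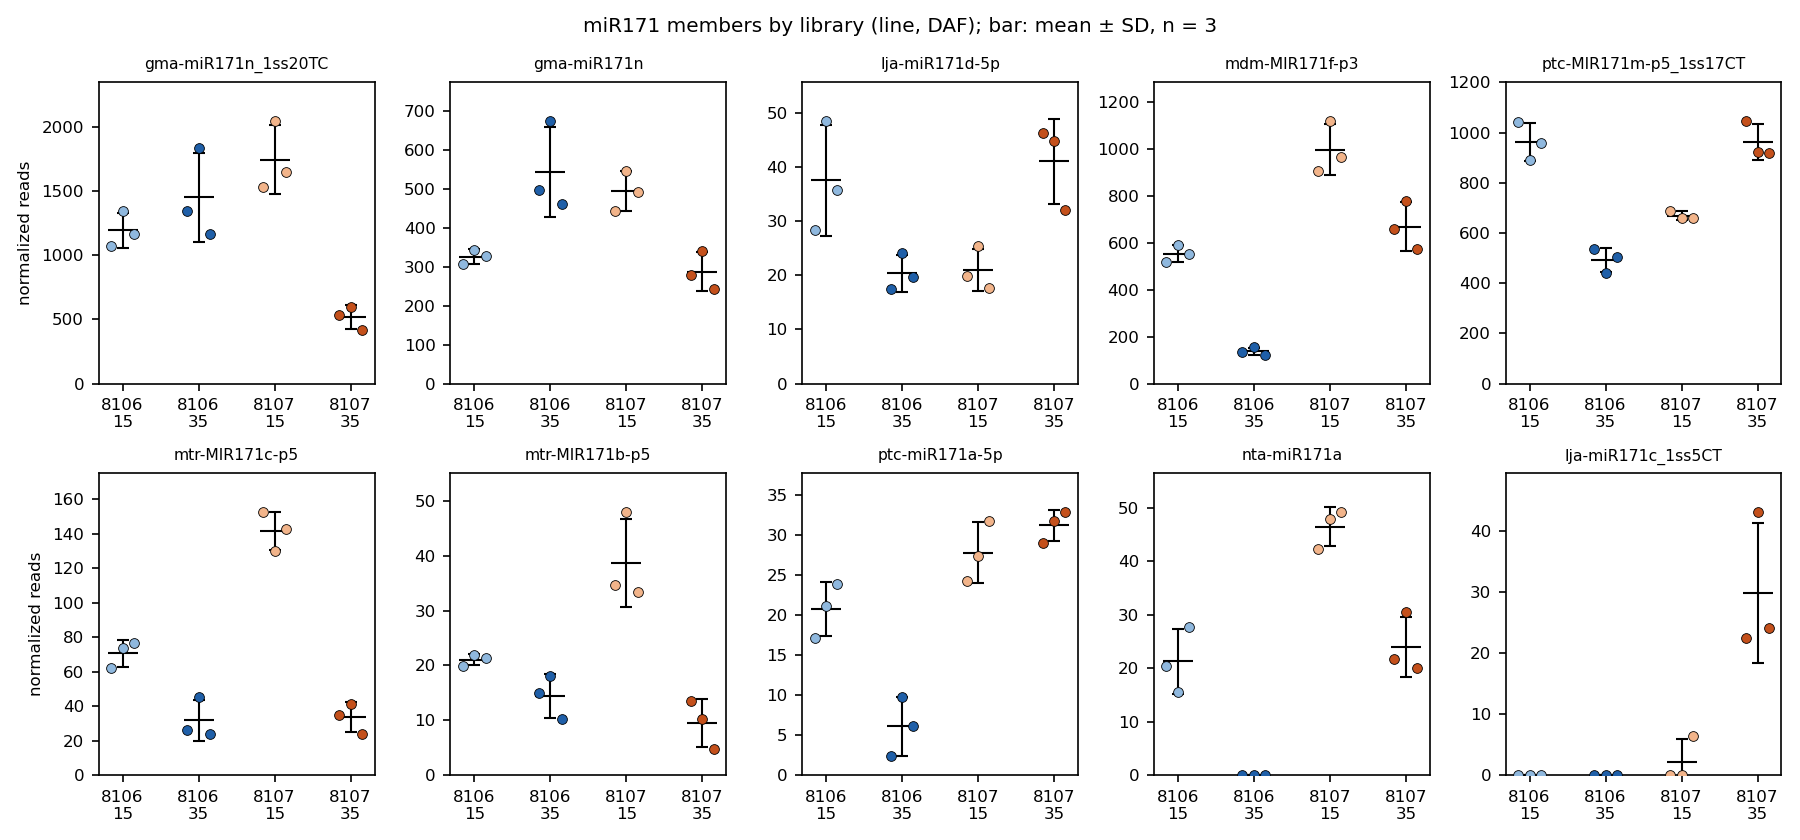
Normalized reads (vertical axis, linear, from 0) of the 10 tested miR171 members in each of 12 libraries, by line and DAF on the horizontal axis, with bars for mean ± SD (n = 3). gma-miR171n_1ss20TC is lowest in 8107 at 35 DAF (517 ± 91.7), while mdm-MIR171f-p3 is lowest in 8106 at 35 DAF (138 ± 15.2).

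The fourth SCL6-listed form, lja-miR171d-5p, is rare. Its values were 28.4, 48.5 and 35.7 normalized reads in 8106 at 15 DAF and 17.4, 24.1 and 19.7 in 8106 at 35 DAF. In 8107 they were 19.9, 25.3 and 17.7 at 15 DAF and 46.2, 44.8 and 32.0 at 35 DAF. It was thus higher at 15 DAF in 8106 and at 35 DAF in 8107, and the stage groups do not overlap within either line. Its stage change was -0.83 ± 0.27 in 8106 (limma, adjusted p = 0.035) and 0.93 ± 0.27 in 8107 (limma, adjusted p = 0.017). The difference of these changes was 1.76 ± 0.38 (limma, adjusted p = 0.0044). Leaving out 1 library at a time, the call in 8106 was lost without replicate 2 or 3 of 15 DAF or replicate 1 or 3 of 35 DAF, with an adjusted p up to 0.13. It was also lost with quantile normalization (adjusted p = 0.16), median centring (0.18), no filter on low values (0.068) and a limma fit of these 6 libraries alone (0.095). The call in 8107 was lost without replicate 3 of 15 DAF or replicate 1 of 35 DAF, with an adjusted p up to 0.064, and with quantile normalization (limma, adjusted p = 0.075).

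A ratio of 2 members within a library is unchanged when all values of that library are scaled by a single factor. Quantile normalization can change it. At 35 DAF the line differences of gma-miR171n and gma-miR171n_1ss20TC were -0.91 and -1.47 in the main test. After quantile normalization they were -1.80 and -1.90. The ratios below are of the values as deposited. The ratio of mdm-MIR171f-p3 to gma-miR171n_1ss20TC was 0.467 ± 0.0245 in 8106 at 15 DAF and 0.0971 ± 0.0117 in 8106 at 35 DAF (SD, n = 3). In 8107 it was 0.576 ± 0.0238 at 15 DAF and 1.30 ± 0.0683 at 35 DAF. The 4 groups did not overlap. Over time the balance moved toward the TTGAGCC-starting form in 8106 and toward mdm-MIR171f-p3 in 8107. The ratio of gma-miR171n to gma-miR171n_1ss20TC, forms that differ by 1 base, was 0.274 ± 0.0161 and 0.376 ± 0.0154 in 8106 at 15 and 35 DAF. In 8107 it was 0.285 ± 0.0161 and 0.556 ± 0.0300, and the 15 DAF groups of the lines overlapped while both 35 DAF groups lay higher.

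**Figure D2:**
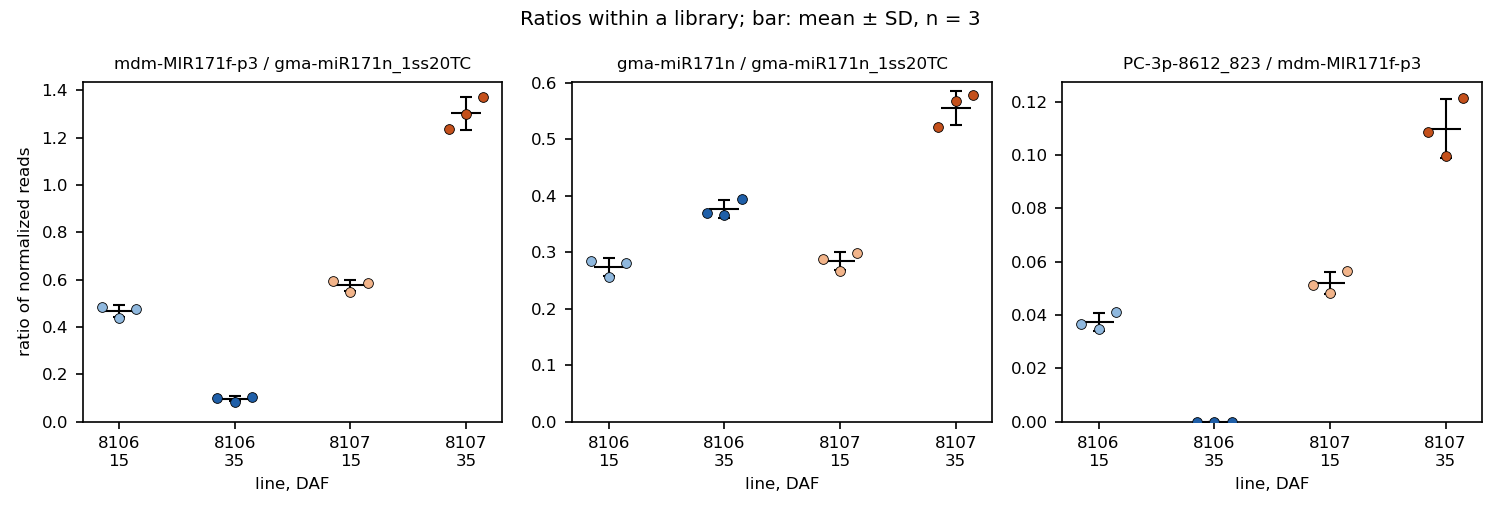
Ratios of normalized reads of a pair of small RNAs in the same library (vertical axes, linear, from 0) by line and DAF, with bars for mean ± SD (n = 3). The ratio of mdm-MIR171f-p3 to gma-miR171n_1ss20TC runs from 0.0971 ± 0.0117 in 8106 at 35 DAF to 1.30 ± 0.0683 in 8107 at 35 DAF.

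The candidate PC-3p-8612_823, which differs from mdm-MIR171f-p3 at its first and second bases, stood at 19.1, 20.4 and 22.7 normalized reads in 8106 at 15 DAF. Each of the 3 libraries of 8106 at 35 DAF had it at 0. In 8107 it stood at 46.5, 54.1 and 54.8 at 15 DAF and at 71.6, 77.4 and 69.7 at 35 DAF, above every library of 8106. At 15 DAF it was higher in 8107 by 1.28 ± 0.22 on the log2 scale (limma, adjusted p = 0.0025). Its ratio to mdm-MIR171f-p3 was 0.0374 in 8106 at 15 DAF, 0.0520 in 8107 at 15 DAF and 0.110 in 8107 at 35 DAF.

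Among the opposite-strand forms, ptc-MIR171m-p5_1ss17CT was the most abundant, and in 8107 at 35 DAF the most abundant member of all. It stood at 1042, 892 and 957 normalized reads in 8106 at 15 DAF and at 536, 442 and 503 in 8106 at 35 DAF. In 8107 it stood at 688, 660.1 and 658 at 15 DAF and at 1047, 921 and 919.7 at 35 DAF. The groups of 8106 at 15 DAF and of 8107 at 35 DAF were both high and overlapped, and the other 2 groups lay below them. From 15 to 35 DAF it fell by 0.97 ± 0.11 in 8106 (limma, adjusted p = 3.9e-05) and rose in 8107 by 0.52 ± 0.11 (limma, adjusted p = 0.0025). The difference of the changes was 1.49 ± 0.15 (limma, adjusted p = 4.4e-05). Between lines it was lower in 8107 at 15 DAF (-0.52 ± 0.11, limma, adjusted p = 0.0063) and higher at 35 DAF (0.96 ± 0.11, limma, adjusted p = 2.9e-05). The 35 DAF difference ran from 0.30 to 2.02 under other scalings and did not pass with quantile normalization (limma, adjusted p = 0.18). Its ratio to gma-miR171n_1ss20TC was 0.820 ± 0.155 and 0.357 ± 0.102 in 8106 at 15 and 35 DAF, and 0.390 ± 0.0634 and 1.90 ± 0.336 in 8107 (SD, n = 3).

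The forms mtr-MIR171c-p5 and mtr-MIR171b-p5 had their highest levels in 8107 at 15 DAF. The first stood at 61.8, 73.4 and 76.8 normalized reads in 8106 at 15 DAF and at 25.9, 45.6 and 23.7 at 35 DAF. In 8107 it stood at 152, 130 and 143 at 15 DAF and at 35.0, 41.2 and 24.0 at 35 DAF. All libraries of 8107 at 15 DAF lay above the other 9, and the 35 DAF groups of the lines overlapped. With stage it fell by 1.19 ± 0.27 in 8106 (limma, adjusted p = 0.0060) and fell by 2.08 ± 0.27 in 8107 (limma, adjusted p = 0.00016). The second, mtr-MIR171b-p5, stood at 20.0, 21.8 and 21.4 in 8106 at 15 DAF and at 14.9, 18.1 and 10.2 at 35 DAF. In 8107 its values were 34.7, 47.9 and 33.4 at 15 DAF and 13.4, 10.3 and 4.81 at 35 DAF. In 8107 it fell by 2.00 ± 0.36 (limma, adjusted p = 0.0014), while its difference of -0.55 ± 0.36 in 8106 did not pass (limma, adjusted p = 0.29).

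The forms ptc-miR171a-5p and nta-miR171a were, like mdm-MIR171f-p3, lowest in 8106 at 35 DAF. The first stood at 17.2, 21.1 and 23.9 normalized reads in 8106 at 15 DAF and at 2.42, 9.71 and 6.10 at 35 DAF. In 8107 it stood at 24.2, 27.4 and 31.8 at 15 DAF and at 29.1, 31.8 and 32.8 at 35 DAF, and these groups overlapped. In 8106 it fell by 1.76 ± 0.38 (limma, adjusted p = 0.0042), with an adjusted p of 0.053 in a limma fit of these 6 libraries alone. At 35 DAF it was higher in 8107 by 2.33 ± 0.38 (limma, adjusted p = 0.00049). The other, nta-miR171a, stood at 20.5, 15.6 and 27.7 in 8106 at 15 DAF and at 0 in each 35 DAF library of that line. In 8107 it stood at 42.2, 47.9 and 49.1 at 15 DAF and at 21.6, 30.4 and 20.0 at 35 DAF. Only the 8106 libraries at 35 DAF had it listed at 0, which may stand for a few reads. Both differences against them passed the test (limma, adjusted p = 1.5e-06 against 8106 at 15 DAF and 4.1e-07 against 8107 at 35 DAF). In 8107 it fell by 0.94 ± 0.30 from 15 to 35 DAF (limma, adjusted p = 0.026). That call was lost without replicate 2 or 3 of 15 DAF or replicate 1 or 3 of 35 DAF, with an adjusted p up to 0.079. It was also lost with equal library totals (-0.63, limma, adjusted p = 0.081) and with a pseudocount of 0.1 (limma, adjusted p = 0.067).

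The divergent lja-miR171c_1ss5CT was listed at 0 in all 6 libraries of 8106. In 8107 it was listed at 0, 0 and 6.44 normalized reads at 15 DAF and at 22.4, 43.0 and 24.0 at 35 DAF. The 35 DAF values of 8107 correspond to about 30, 96 and 30 reads, and the single value at 15 DAF to about 16. Its difference between stages in 8107 passed the test (limma, adjusted p = 0.0015), as did that between lines at 35 DAF (limma, adjusted p = 0.00025). It was tested through the group in which it is high, so these calls add nothing to its values. It is left out of the counts of members below unless it is named with them.

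Another 6 members stayed under the minimum for testing. Their highest values over the 12 libraries were 15.1 normalized reads for mdm-MIR171f-p5, 12.3 for gma-MIR171n-p5_1ss9GA, 8.95 for ppe-miR171d-5p_L-1_2ss11GC22AT, 7.53 for mtr-miR171e-5p, 3.25 for mtr-miR171c_L+2_1ss23TC and 2.94 for ptc-miR171a-5p_L+3. The rare gma-MIR171n-p5_1ss9GA shares the seed GGTATTG with mtr-MIR171b-p5. Its group means were 4.53 and 1.95 in 8106 at 15 and 35 DAF and 8.98 and 0.895 in 8107. At 3 of the 4 groups, mtr-miR171c_L+2_1ss23TC and ptc-miR171a-5p_L+3 were listed at 0 throughout.

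**Figure D3:**
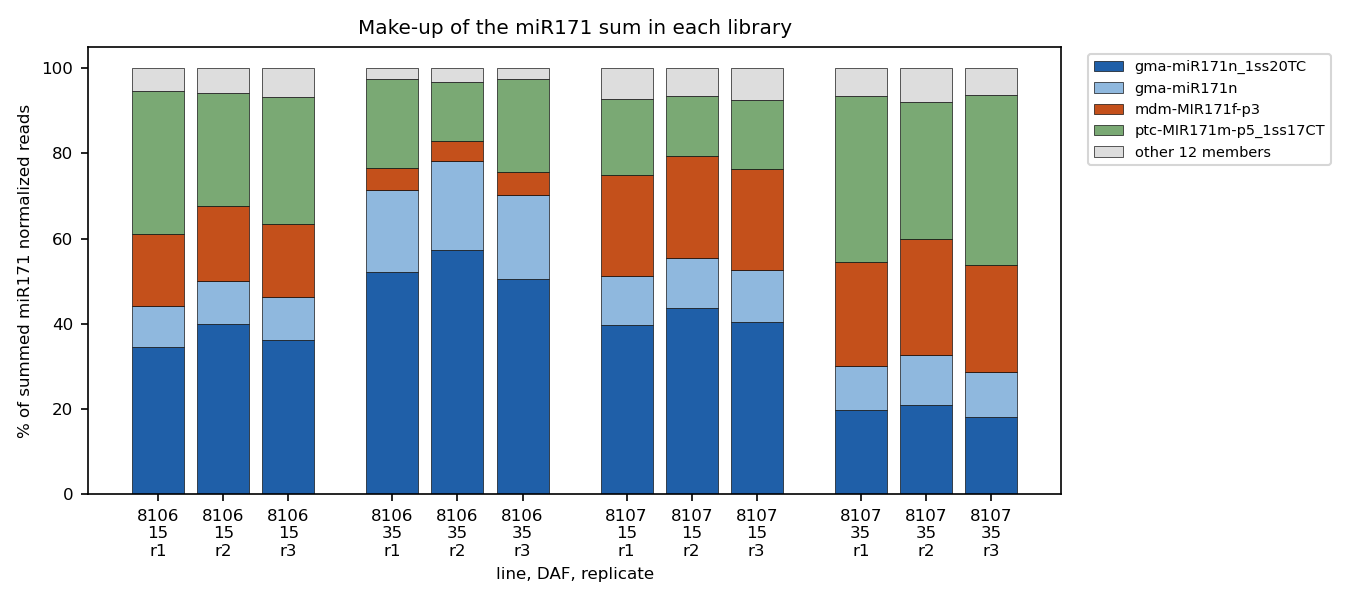
Share of the summed miR171 normalized reads held by the 4 most abundant members and by the other 12 (vertical axis, percent) in each library (horizontal axis: line, DAF, replicate). gma-miR171n_1ss20TC holds on average 53.3% of the sum in 8106 at 35 DAF and 19.7% in 8107 at 35 DAF.

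Summed over its 16 members, the family stood at 3228 ± 127 normalized reads in 8106 at 15 DAF and 2699.6 ± 461 at 35 DAF (SD, n = 3). In 8107 the sum was 4199 ± 423 at 15 DAF and 2617 ± 290.4 at 35 DAF. The 35 DAF sums of the lines differed by less than their spread, while their make-up differed. The 4 SCL6-listed forms held 65.2 ± 3.67% of the sum in 8106 at 15 DAF and 79.2 ± 3.98% at 35 DAF. In 8107 they held 77.4 ± 2.37% and 57.7 ± 3.42%. As a share of all listed normalized reads, the family made up 0.478 ± 0.0277% and 0.261 ± 0.0328% in 8106 at 15 and 35 DAF. In 8107 it made up 0.673 ± 0.0483% and 0.526 ± 0.0279%.

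Between lines at 15 DAF, 4 of the other 9 tested members were higher in 8107, 1 was lower and 4 did not pass. Of all 395 tested sequences, 22.5% passed in this comparison, 15.7% higher and 6.84% lower. The higher ones were mdm-MIR171f-p3, gma-miR171n, mtr-MIR171c-p5 and nta-miR171a, and the lower one was ptc-MIR171m-p5_1ss17CT. The difference of gma-miR171n_1ss20TC was 0.54 ± 0.20 (limma, adjusted p = 0.076) and that of lja-miR171d-5p -0.79 ± 0.27 (limma, adjusted p = 0.059), which did not pass. With the replicate number as a block both passed (limma, adjusted p = 0.0054 and 0.021). The groups did not overlap for 9 of the 9, against 44.1% of all tested sequences. The members' median log2 difference was 0.60, beside -0.09 over all tested. Only the call of ptc-MIR171m-p5_1ss17CT passed under each of 4 scalings. The members' split was 5 higher and 1 lower with equal library totals, 1 and 1 after quantile normalization, and 0 and 1 after median centring. Over all tested sequences 62 of 89 calls were higher in the main test, and 74 of 97 with equal library totals. After quantile normalization 38 of 74 were higher, and after median centring 25 of 61. The difference of gma-miR171n was 0.60 ± 0.17 (limma, adjusted p = 0.031), of mtr-MIR171c-p5 1.00 ± 0.27 (limma, adjusted p = 0.025) and of nta-miR171a 1.13 ± 0.30 (limma, adjusted p = 0.023). Leaving out a single library lost the call of mtr-MIR171c-p5 in each of 6 cases, of gma-miR171n in 5 (all except replicate 1 of 8107) and of nta-miR171a in 4 (replicates 1 and 2 of 8106, 2 and 3 of 8107). Their adjusted p then reached 0.093, 0.10 and 0.078 in limma. The count of members called was 2 without replicate 1 or 2 of 8106 or replicate 2 or 3 of 8107, 3 without replicate 3 of 8106 and 4 without replicate 1 of 8107. Of all 395 tested sequences, 89 were called in the main test. Without replicate 1, 2 or 3 of 8106 that count was 42, 81 and 47. Without replicate 1, 2 or 3 of 8107 it was 78, 51 and 52.

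Between lines at 35 DAF, 5 of the 9 members were higher in 8107, 2 were lower and 2 did not pass, where 52.4% of all tested sequences passed, 32.2% higher and 20.3% lower. The lower ones were gma-miR171n_1ss20TC and gma-miR171n. Higher were mdm-MIR171f-p3, lja-miR171d-5p (0.97 ± 0.27, limma, adjusted p = 0.013), ptc-MIR171m-p5_1ss17CT, ptc-miR171a-5p and nta-miR171a. The groups did not overlap for 7 of 9, against 52.7% of all tested. The median difference was 0.96, beside 0.03 over all tested. Calls of mdm-MIR171f-p3, ptc-miR171a-5p and nta-miR171a passed under each of 4 scalings. The members' split was 6 higher and 0 lower with equal library totals, 3 and 2 after quantile normalization, and 4 and 2 after median centring. Over all tested sequences 127 of 207 calls were higher, against 187 of 221 with equal library totals, 89 of 183 after quantile normalization and 93 of 203 after median centring. Equal library totals moved the median of all tested sequences to 1.01 in this comparison.

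From 15 to 35 DAF in 8106, 1 of the 9 members rose, 6 fell and 2 did not pass, where 36.2% of all tested sequences passed, 13.2% as rises and 23% as falls. The riser was gma-miR171n, and mdm-MIR171f-p3, ptc-MIR171m-p5_1ss17CT, mtr-MIR171c-p5, ptc-miR171a-5p, nta-miR171a and lja-miR171d-5p fell. With equal library totals 0 rose and 7 fell. Over all tested sequences 24 of 151 calls were then rises, and the median change was -0.77. As deposited, the groups did not overlap for 8 of 9, against 44.6% of all tested. In the main test the members' median change was -0.97, beside -0.24 over all tested. In 8107, 2 members rose, 6 fell and 1 did not pass, where 46.3% of all tested passed, 23% as rises and 23.3% as falls. There lja-miR171d-5p and ptc-MIR171m-p5_1ss17CT rose. The fallers were gma-miR171n_1ss20TC, gma-miR171n, mdm-MIR171f-p3, mtr-MIR171c-p5, mtr-MIR171b-p5 and nta-miR171a. The groups did not overlap for 8 of 9, against 58% of all tested, and the median change was -0.79, beside 0.06.

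The stage change itself differed between lines for 8 of the 9 members, higher in 8107 for 5 and lower for 3, where 41% of all tested sequences passed, 22.3% higher and 18.7% lower. The median difference of changes was 1.42, beside 0.52 over all tested. It was lower in 8107 for gma-miR171n_1ss20TC, gma-miR171n and mtr-MIR171b-p5. Of these 8 calls, 6 passed under each of 4 scalings, and those of mtr-MIR171b-p5 and ptc-miR171a-5p did not. Each comparison shares groups with others, so their counts are not independent.

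**Figure D4:**
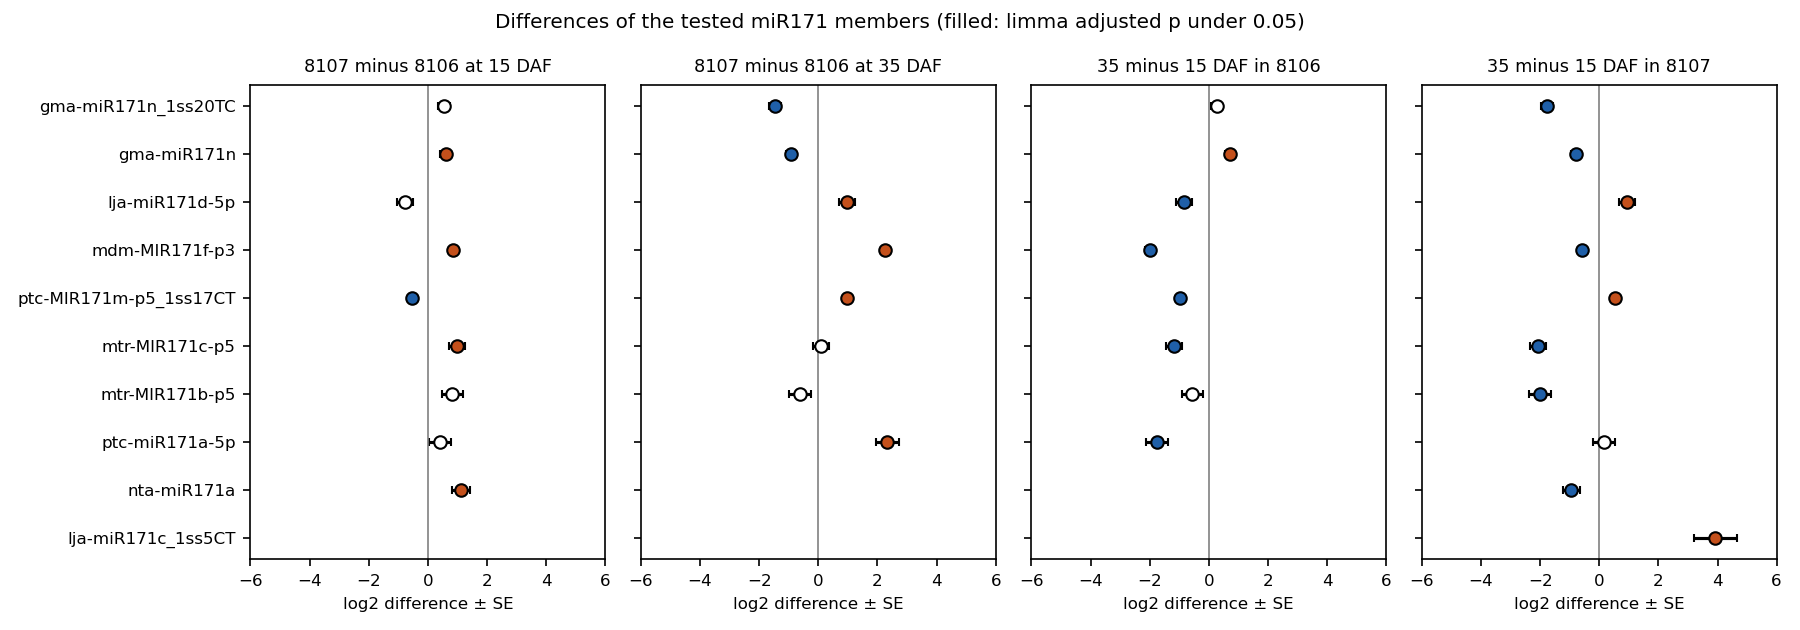
Log2 differences on the log2(value + 1) scale ± SE from limma (horizontal axis) for the tested miR171 members in the line and stage comparisons, filled where the Benjamini-Hochberg adjusted p is under 0.05 (orange higher, blue lower). No point is drawn where a group is listed at 0 throughout, and mdm-MIR171f-p3 and gma-miR171n_1ss20TC lie on opposite sides of 0 at 35 DAF (2.27 and -1.47).

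The degradome table held 257 small RNA names in all, beside 795 sequences in the study, some of which have more than 1 name. It listed 7 of the 16 members, under 8 of their 18 names. These stood in 28 combinations of small RNA sequence, transcript and site, of 2497 combinations by name in all. SCL6 accounted for 16 of them, as 4 guide sequences on each of 4 transcripts. Alignment score, where lower means better pairing, was 1 for mdm-MIR171f-p3 and lja-miR171d-5p, 2.5 for gma-miR171n_1ss20TC and 3 for gma-miR171n, on every SCL6 transcript. A score of at most 1 was held by 195 of all combinations (7.81%), and the median of all was 3.5.

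Listed cleavage positions on SCL6 fell into a pair of registers. For mdm-MIR171f-p3 they were 1193 on XM_016095115.1, 1205 on XM_016095114.1, 1199 on XM_016328632.1 and 1208 on XM_016328631.1, counted along each transcript. For the 3 guides with seed TGAGCCG they were 1190, 1202, 1196 and 1205 on the same transcripts, in each case 3 bases lower. That equals the offset between the starts of the guide sequences printed above. The shift follows from that offset, because in all 16 combinations the listed cut lay opposite base 10 of the small RNA. That placement held for 79.58% of combinations in the whole table. All 16 were listed 2 times, as were 45.37% of all combinations, and what the repeat stands for is not marked in the table. PC-3p-8612_823 was listed at the sites of mdm-MIR171f-p3, with a score of 4. No sequence of these transcripts was used here, so the target sites are not printed.

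**Figure D5:**
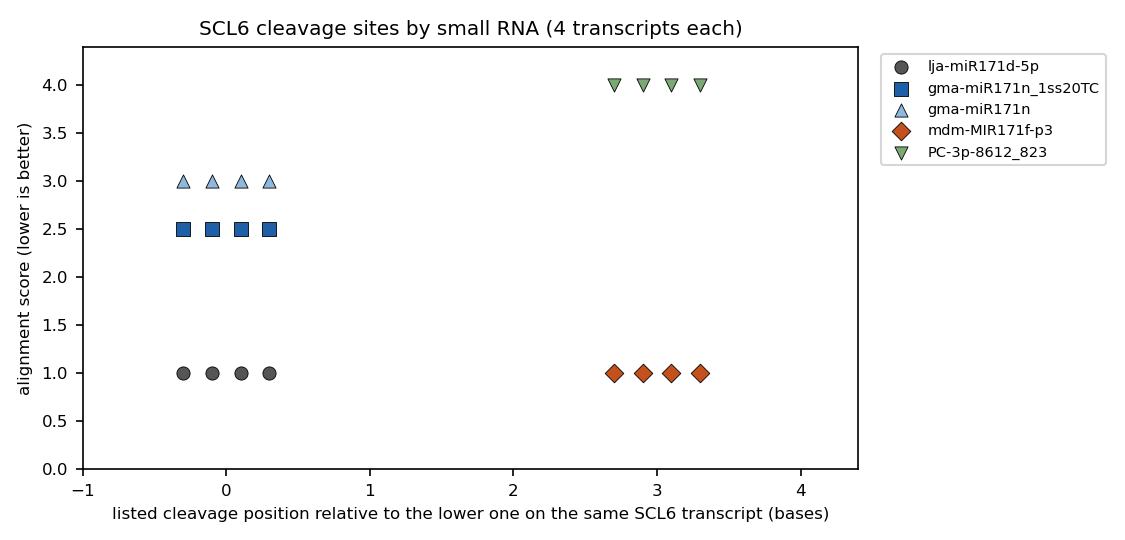
Alignment score (vertical axis, lower is better) of small RNAs listed against SCL6, by listed cleavage position relative to the lower one on the same transcript (horizontal axis, bases, points spread for visibility), with 1 point for each of 4 transcripts. The guides with seed TGAGCCG sit at 0 with scores of 1, 2.5 and 3, and mdm-MIR171f-p3 (score 1) and PC-3p-8612_823 (score 4) sit at 3 bases.

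The other 12 combinations were each listed 1 time and had scores of 3 to 4. One of them was NSP2, listed against lja-miR171d-5p alone, with score 3 and the cut at position 383 of XM_016308136.1. It was the sole NSP2 combination in the table. The opposite-strand form mtr-MIR171b-p5 was listed against 3 transcripts of PHYLLO, an enzyme of phylloquinone synthesis in Arabidopsis, with score 4. The rare ppe-miR171d-5p_L-1_2ss11GC22AT, at most 8.95 normalized reads in any library, was listed with score 3.5 against 3 transcripts of the acyl-activating enzyme AAE16, 2 of the chaperone partner dnaJ and 2 without a symbol. The form mtr-MIR171c-p5 was listed with score 4 against 1 transcript without a symbol. The abundant ptc-MIR171m-p5_1ss17CT was not listed, nor were ptc-miR171a-5p, nta-miR171a and lja-miR171c_1ss5CT. Among other symbols searched for GRAS genes, RGA1, RGA2 and RGA3 were found in 6, 17 and 33 combinations, none with a miR171 name. The symbol RGA names both a GRAS regulator and resistance gene analogs, and which was meant is not stated in the table. Degradome sites carry no line or stage here, so the levels above could not be set against cleavage by group.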

How the data were processed

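Small RNA libraries (single-end, 50 bp) and degradome libraries were made by the authors from peanut seed, per the labels. The deposited small RNA table holds normalized reads, a signal with a formula not given in the sources used here. Bowtie is named in the submitters' processing notes, with a genome build not given in the sources used here. The alignment score and the other columns of the degradome table are the authors' values, as deposited. Lines with the same sequence were merged, leaving 795 sequences. Within libraries, 99.478 to 100% of low values were whole multiples of 1 step within 0.02 steps, which gave 580011 to 3243576 estimated reads per library. Because the values are normalized, limma 3.58.1 in R 4.3.3 with a trend was the main test, on log2(value + 1), for sequences at 10 or more in at least 3 of 12 libraries, with 4 group means and Benjamini-Hochberg adjustment over 395 sequences at 0.05. A fold change on this scale understates changes of low values. Library scaling, filters, pseudocounts, voom, a replicate block and leaving out each library were tried as alternatives, and edgeR was not run. Deviations from group means of same-numbered libraries correlated at over 0.1 in all 3 pairs for each comparison except lines at 35 DAF (2 of 3), and no label says what a number marks. All members and their target symbols are named, with the 5 sequences outside the family most correlated with the most abundant member. Members and lists were chosen with earlier results of these data known.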

Additional observations from a re-analysis of the deposited data

Results flagged for a closer look

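For 9 tested members the stage change differed between the lines in a test of that difference itself (limma, Benjamini-Hochberg adjusted p under 0.05). Leaving out lja-miR171c_1ss5CT, 8 of 9 members passed. Of all 395 tested sequences, 41% passed, 22.3% higher and 18.7% lower. The stage change in 8107 minus that in 8106, on the log2(value + 1) scale, was 1.76 for lja-miR171d-5p, 1.42 for mdm-MIR171f-p3, -2.02 for gma-miR171n_1ss20TC and 1.49 for ptc-MIR171m-p5_1ss17CT. It was -1.44 for mtr-MIR171b-p5, -1.51 for gma-miR171n and 1.93 for ptc-miR171a-5p. For nta-miR171a it was 3.50 and for lja-miR171c_1ss5CT 3.92. The latter was tested only because it is high in 8107 at 35 DAF, so its call follows from that choice and adds nothing to its values. These last values depend on the pseudocount, since groups of 8106 are listed at 0. With voom the call of lja-miR171c_1ss5CT was lost (adjusted p = 0.11), and with quantile normalization that of ptc-miR171a-5p (limma, adjusted p = 0.075). The call of mtr-MIR171b-p5 was lost in 10 of 12 cases of leaving out 1 library, with an adjusted p up to 0.094. It was also lost with equal library totals (-0.60, limma, adjusted p = 0.34), quantile normalization (-1.85, limma, adjusted p = 0.20) and median centring (-1.60, limma, adjusted p = 0.052), and with no filter on low values (limma, adjusted p = 0.073) and a pseudocount of 0.1 (limma, adjusted p = 0.060).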

How the results depend on the processing

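Results rest on 3 libraries a group and on how libraries are scaled. The log2 ratio of summed family levels was 0.38 between lines at 15 DAF, -0.05 at 35 DAF, -0.26 for stage in 8106, -0.68 for stage in 8107 and -0.42 for the difference of changes. With equal library totals these were 0.49, 1.01, -0.87, -0.35 and 0.52, and with quantile normalization, leaving out stage in 8107, 0.20, -0.61, 0.00074 and -0.82. With median centring the same 4 were 0.14, -0.47, -0.029 and -0.61. Leaving out 1 library gave ranges of 0.30 to 0.44, -0.15 to 0.098, -0.40 to -0.16, -0.75 to -0.60 and -0.52 to -0.28. Members called at 15 DAF, 5 in the main test, numbered 2 with quantile normalization, 1 with median centring and 8 with voom, and 2 to 4 without 1 library. Of all 395 tested sequences, 89 were called in the main test, 74 with quantile normalization, 61 with median centring and 170 with voom. Without 1 library the count over all tested sequences was 42 to 81. With a minimum of 50 normalized reads, 4 members were called at 35 DAF, 4 in 8106, 5 in 8107 and 4 for the difference of changes. That minimum, in at least 3 libraries, left only gma-miR171n_1ss20TC, gma-miR171n, mdm-MIR171f-p3, ptc-MIR171m-p5_1ss17CT and mtr-MIR171c-p5 to test among the members. Of all 200 sequences then tested, 134, 111, 118 and 119 were called in these comparisons. Under the replicate block 7, 8, 7, 9 and 9 of the 10 tested members were called, in the order of comparisons given above. These counts include lja-miR171c_1ss5CT, whose calls add nothing to its values. Of all 395 tested sequences, 145, 253, 172, 230 and 210 were called under the block. At 15 DAF the block added gma-miR171n_1ss20TC and lja-miR171d-5p, and it changed no other call of a member. Same-numbered libraries correlated at over 0.1 in 17 of 18 pairs, the lowest at 0.039 between lines at 35 DAF, and 8 of 12 libraries correlated best with their own number. Signs turned with equal library totals for mtr-MIR171b-p5 (0.35) and gma-miR171n (0.14) at 35 DAF, for gma-miR171n_1ss20TC over stage in 8106 (-0.35) and for mtr-MIR171c-p5 in the difference of changes (0.0082). The 35 DAF difference of mtr-MIR171c-p5, 0.10 in the main test, was 1.12 with equal library totals, where it passed (limma, adjusted p = 0.0024). It was -0.15 with quantile normalization, -0.30 with median centring and -0.072 to 0.38 without 1 library. The cause of these moves was not tested. The 28 degradome combinations by sequence stand beside 52 lines with repeats and second names included, and 17 remained at a score of at most 3 and 8 at a score of at most 2. Values listed at 0 limit what can be said of rare members.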

Other observations

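Among sequences outside the family, those most like gma-miR171n_1ss20TC over the 12 libraries were taken by Pearson's r of log2(value + 1), as a description over libraries that share depth and scaling. The closest was mtr-miR160a (r = 0.96), of a family known to target auxin response factors, with mean normalized reads of 3206, 2759, 3922 and 1386 in 8106 at 15 and 35 DAF and 8107 at 15 and 35 DAF. Then came gma-miR6300_R+2_1 and gma-miR6300_R+2_2, which carry identical values (r = 0.95). The form mtr-miR164a, of a family known to target NAC transcription factors, had r = 0.94 and means of 8137, 5671, 8327 and 1124. The form mtr-miR166a_1ss20CT, of a family known to target HD-ZIP III factors, had r = 0.93 and means of 10481, 16772, 13628 and 6377.

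Other families tied to meristems or to SCARECROW-like factors gave 53 tested sequences, 19 of miR156, 9 of miR164, 20 of miR166 and 5 of miR394. At 15 DAF 12 were higher in 8107, 2 were lower and 39 did not pass, with a median difference of 0.15. The share called was 26.4%, near the 22.5% of all tested sequences. At 35 DAF 18 were higher and 22 lower, with a median of -0.39, and 75.5% were called, beside 52.4% of all tested (32.2% higher, 20.3% lower). Of miR156, whose family targets SPL factors, 10 of 19 were then higher and 4 lower, and of miR164 1 of 9 was higher and 7 lower. Of miR166 5 of 20 were higher and 9 lower, and of miR394 2 of 5 were higher and 2 lower. From 15 to 35 DAF 16 rose and 11 fell in 8106 (median 0.05), 50.9% beside 36.2% of all tested. In 8107 13 rose and 19 fell (median -0.29), 60.4% beside 46.3%. In the test of the difference of stage changes, 9 were higher and 19 lower in 8107, with a median of -0.32, 52.8% beside 41% of all tested.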
